A study of Mus musculus with 13 samples.

Results

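The response of mouse embryonic fibroblasts (MEFs) to 5-azacytidine (5-aza) was followed in cells that carried a control hairpin, using 6 of the 13 samples of the series. The 6 libraries are 3 pairs of cultures with and without 5-aza. Pairs A and B carried a non-silencing hairpin and the third pair a hairpin against luciferase, so that no endogenous gene was targeted. The other samples are 6 libraries with a hairpin against Setdb1, an H3K9 methyltransferase, used here only to set responses side by side, and 1 library with 5-aza and no named hairpin. The cells were primary female MEFs from E13.5 embryos whose 2 X chromosomes were XXist∆A and XPGK, the former carrying a deletion in Xist. By the study's methods the non-silencing hairpin was put into cells wild-type for Setdb1 and the Setdb1 hairpins into Setdb1+/gt cells, which carry 1 gene-trap allele, so hairpin and Setdb1 genotype cannot be told apart in any difference between them. Both control hairpin groups shared the X-linked genotype by the labels, retroviral transduction and puromycin selection after 24 h. 5-aza was given 3 days after transduction for 24 h and RNA was harvested on day 7, so the treated cells had been without drug for the last days of culture. The labels do not say whether the cultures came from separate embryos, so p-values measure the spread between these samples, which may be technical.

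5-aza is a cytidine analogue that is built into nucleic acids. In DNA it traps DNA methyltransferases, so methylation is lost as cells replicate, and genes held silent by a methylated promoter, such as germline genes and some repeats, can be transcribed. In somatic cells the drug is also known for DNA damage, for slowing the cell cycle and for transcription of endogenous repeats that can set off an interferon response.

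Promoters of 4 genes described below are shown first, because they span the range from CpG-rich to CpG-poor among genes that rose. Each run is the 250 bases before the annotated start in RefSeq on GRCm38.p6, written 5′ to 3′ on the gene's strand. Capitals mark CpG in the first 3, and in Ifit1 they mark the interferon-stimulated element, searched on both strands as GAAA, any 2 bases, GAAA. Dazl is at chr17:50293621-50293870 on the minus strand and holds 20 CpG. Tex19.1 is at chr11:121145893-121146142 on the plus strand and holds 15 CpG. Krt8 is at chr15:102004343-102004592 on the minus strand and holds 3 CpG. Ifit1 is at chr19:34640639-34640888 on the plus strand and holds 4 CpG. Over all 32851 windows of the same length the median was 6 CpG with quartiles at 2 and 16, and 2.98% of them held the interferon-stimulated element.
Dazl: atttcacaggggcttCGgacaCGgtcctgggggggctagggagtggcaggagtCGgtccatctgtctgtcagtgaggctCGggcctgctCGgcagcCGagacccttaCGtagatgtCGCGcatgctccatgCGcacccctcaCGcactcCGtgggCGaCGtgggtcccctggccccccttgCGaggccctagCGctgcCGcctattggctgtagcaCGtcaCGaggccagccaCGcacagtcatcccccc
Tex19.1: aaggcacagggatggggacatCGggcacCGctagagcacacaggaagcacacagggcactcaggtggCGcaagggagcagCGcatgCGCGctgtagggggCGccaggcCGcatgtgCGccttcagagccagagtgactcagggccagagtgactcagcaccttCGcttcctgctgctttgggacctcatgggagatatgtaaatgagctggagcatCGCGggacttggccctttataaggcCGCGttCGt
Krt8: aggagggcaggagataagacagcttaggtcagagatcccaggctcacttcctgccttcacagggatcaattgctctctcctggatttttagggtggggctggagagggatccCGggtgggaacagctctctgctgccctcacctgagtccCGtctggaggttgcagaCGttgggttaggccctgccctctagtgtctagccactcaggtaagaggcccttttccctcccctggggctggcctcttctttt
Ifit1: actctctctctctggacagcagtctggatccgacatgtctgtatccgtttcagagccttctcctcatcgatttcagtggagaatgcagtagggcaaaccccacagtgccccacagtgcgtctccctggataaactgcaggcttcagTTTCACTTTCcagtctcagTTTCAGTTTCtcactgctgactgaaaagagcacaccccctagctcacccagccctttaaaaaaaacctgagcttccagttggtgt

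The 6 libraries held 40584213 to 49358519 reads in genes, and 1 read was worth 0.0177 to 0.0216 RPM (reads scaled to a library of fixed total), so that 1 RPM stood for 46.3 to 56.6 reads. Of 25965 gene intervals, 13134 reached 1 RPM in 3 of the 12 hairpin libraries and were tested. Of these, 262 reached 1 RPM in no untreated control hairpin library, so they could pass only through treated cells or Setdb1 hairpin cells. All 14 fibroblast markers were tested and none passed, though 2 passed higher with 1 library left out, with Col1a1 at a mean of 8431 RPM without and 7660 RPM with 5-aza. Macrophage markers summed to 10.6 to 11.4 RPM untreated and 14.1 to 16.1 RPM treated. All but Ptprc (means of 0.148 and 0.133 RPM) had a higher mean with 5-aza, among them Csf1r (7.53 and 9.07 RPM) and Lyz2 (0.596 and 1.01 RPM). Of the 3 macrophage markers tested 2 passed higher, and 1 without the luciferase pair. Endothelial markers summed to 85.8 to 112 RPM untreated and 41.3 to 59.0 RPM treated, nearly all of it Flt1. Kdr, Tek and Emcn had lower means with 5-aza too, while Cdh5 went from a mean of 0.324 to 0.987 RPM and Esam from 0.159 to 0.328 RPM. Tie1, Cldn5 and Sox17 had no read in any of the 6 libraries. Schwann and neural markers summed to 52.1 to 54.3 and 46.2 to 57.0 RPM, with no read of Foxd3. Among them Cdh19 went from a mean of 0.0404 to 0.527 RPM and Pmp2 from 1.5 to 0.512 RPM. Mesothelial markers summed to 26.7 to 32.2 and 34.1 to 45.4 RPM, most of it Krt19 (means of 25.1 and 34.8 RPM). Wt1, Upk1b and Upk3b had lower means with 5-aza, while Msln and Lrrn4 had higher means. Keratinocyte markers summed to 1.88 to 2.32 and 2.65 to 2.78 RPM, with no read of Krt1 or Dsg3. Krt5 went from a mean of 0.033 to 0.472 RPM. In bulk RNA, fewer cells of a type and less RNA per cell cannot be told apart, and the part of any of these markers in the results below was not tested.

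The 3 treated control hairpin libraries stood apart from every other library at processed pseudogenes, which are reverse-copied remnants of expressed genes. The 32 pseudogenes that rose at least 2-fold summed to 65.9 to 67.3 RPM in untreated and to 165 to 182 RPM in treated control hairpin cells. The same 32 summed to 72.3 to 82.6 RPM in Setdb1 hairpin cells without and 75.3 to 83.5 RPM with 5-aza, and to 65.9 RPM in the 5-aza library with no named hairpin. Over all 337 pseudogenes tested the sum was 14000 to 14500 RPM untreated and 13600 to 14400 RPM treated. The 32 were chosen by their rise in the control hairpin cells, so only the levels in the other libraries are independent of that choice. How reads that match several places in the genome were counted is not given in the sources used here, and the cause was not tested. Counts below are therefore also given without pseudogenes where they moved, and the clearest cases of this pattern among named genes are pointed out.

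5-aza changed 2471 of the 13134 genes (18.8%) at an adjusted p under 0.05 by limma, 1769 higher (13.47%) and 702 lower (5.34%). Most changes were small, with a median absolute log2 fold change of 0.315 among changed genes. At least 2-fold changes were 111 higher (0.845%) and 21 lower (0.16%). Of the 111 genes, 74 were protein coding and 66 had an untreated mean under 1 RPM, where 393 of the genes tested lay, against 2 with an untreated mean of at least 10 RPM, where 8759 lay. The filter shapes this contrast, since a gene low in untreated cells enters mainly through a group in which it is higher. The excess of rises depended on scaling. The median gene was 0.04 higher on the log2 scale, and once each library was centred on its median gene, 1285 genes were higher (9.78%) and 1335 lower (10.2%), so rises went from 71.6% to 49.0% of the calls. The 3 treated and 3 untreated libraries did not overlap at 4933 genes (37.6%). Across 12987 genes with an annotated transcript the log2 fold change had a Spearman correlation of 0.175 with GC percent and -0.20 with transcript length. Counts of several lists that moved with these trends removed are given below. The calls also rested on single libraries: leaving out untreated replicate B left 1260 calls, untreated replicate A 1472, treated replicate B 1541 and both luciferase libraries 1581.

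**Figure D1:**
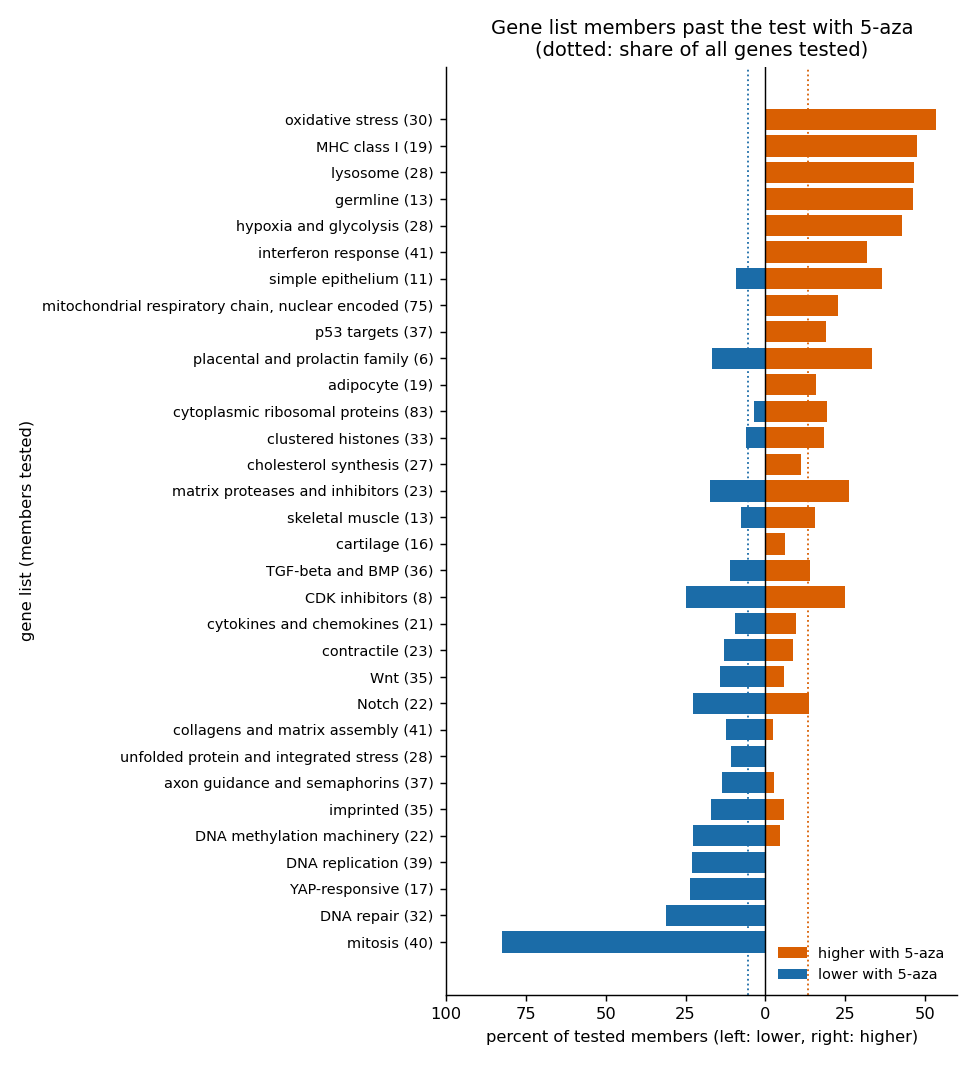
Percent of tested members of each gene list that passed limma's test higher (right, orange) or lower (left, blue) with 5-aza; the number tested is in parentheses and dotted lines mark the 13.47% and 5.34% of all genes. Mitosis genes lie far to the left, with 33 of 40 lower, and oxidative stress, MHC class I and lysosome genes to the right; the germline bar rests on 13 genes, 9 of which reached 1 RPM in no untreated control hairpin library.

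The study asked how the X chromosome is kept silent, and in these libraries the X chromosome gave no larger share of changed genes than the rest of the genome. Of 431 X-linked genes tested, 46 rose (10.7%) and 22 fell (5.1%), beside 13.47% and 5.34% of all genes. Their median log2 fold change was 0.04, equal to that of all genes. Alleles were not separated in these values, so a gain from one X chromosome shows only as a change of the sum. Rhox5, a homeobox gene of the reproductive tract, had the largest rise of the protein coding X-linked genes by the fit, at 3.24.

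A few genes of the DNA methylation machinery were lower days after the drug. Dnmt1, the maintenance DNA methyltransferase, was at 83.0, 85.4 and 82.8 RPM in untreated A, B and luciferase cells and at 71.4, 71.0 and 75.6 RPM with 5-aza. Its log2 fold change was -0.20 ± 0.07 (SE) with an adjusted p of 0.0483, and leaving out any 1 of the 6 libraries ended that call. Uhrf1, which brings Dnmt1 to newly replicated DNA, went from 37.0, 36.4 and 32.9 RPM to 24.9, 26.8 and 27.5 RPM (-0.42 ± 0.10, adjusted p = 0.0148). The groups did not overlap at either gene. Hells, a chromatin remodeller needed for DNA methylation, Smchd1, a chromatin protein of the inactive X, and Gadd45b fell with log2 fold changes of -0.35, -0.21 and -0.31. The de novo methyltransferases did not pass in the fit used here. Dnmt3a had a log2 fold change of -0.14 ± 0.09 (adjusted p = 0.309) and Dnmt3b of -0.24 ± 0.15 (adjusted p = 0.278), and Dnmt3b was near 1 RPM. The single member of the 22 tested that rose was Zbtb38, a reader of methylated DNA, at 0.27 ± 0.06. With 1 higher and 5 lower, beside 13.47% and 5.34% of all genes, the list had a median log2 fold change of -0.08 against 0.04 over all genes.

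Germline genes that were nearly silent in untreated cells were among the largest rises. Dazl, an RNA-binding protein of germ cells, was at 0.0177, 0.0216 and 0.0638 RPM untreated, which is 1 to 3 reads, and at 1.79, 1.43 and 1.93 RPM with 5-aza. Against a floor of 3 reads in each untreated library it was at least 28.4-fold higher (adjusted p = 2.88e-05). Tex19.1, which guards the germline against retrotransposons, had no read in the 3 untreated libraries and 0.301, 0.261 and 0.394 RPM with 5-aza. It was at least 5.27-fold higher (adjusted p = 4.76e-06). Every treated library lay above every untreated one at both genes. Rhox5 went from 0.247, 0.151 and 0.191 RPM to 2.41, 1.92 and 1.31 RPM (3.24 ± 0.24, adjusted p = 7.3e-06). Tdrd9, a helicase of the piRNA pathway, went from 0.0707, 0.0863 and 0.085 RPM to 0.452, 0.223 and 0.166 RPM (1.67 ± 0.31, adjusted p = 0.00395). Tex19.1 and Tdrd9 stayed under 1 RPM in every library given here, so they were tested only through Setdb1 hairpin cells. Dazl and Rhox5 reached 1 RPM in no untreated control hairpin library, so they entered only through treated or Setdb1 hairpin cells.

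Cpeb1, which controls translation in oocytes and neurons, and Stag3, a meiotic cohesin, made up the 6 germline genes that rose, at 0.38 ± 0.06 and 0.33 ± 0.10. Most of the list could not be judged. Of 67 germline genes, 54 stayed below the filter and none of these exceeded 0.689 RPM in any of the 6 libraries, so the rise was measured in a few members only. Of the 13 tested, 9 reached 1 RPM in no untreated control hairpin library, so their count is no measure of how the list behaved. The 20 CpG of the Dazl promoter and the 15 of Tex19.1 shown above lie above the median of 6 over all windows. A promoter window was found for 49 of the 74 protein coding genes raised at least 2-fold, which is too few for a comparison of CpG content over the set.

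Leaving aside genes with at most 3 reads in each untreated library, the 2 largest fold changes were of gene models with little known function. Gm10800 (chromosome 2, 98666547 to 98667301) went from 0.371, 0.388 and 0.446 RPM to 32.1, 26.8 and 21.7 RPM, a log2 fold change of 6.05 ± 0.16 (adjusted p = 1.04e-09). AC242409.1 (chromosome 14, 19415857 to 19418930) went from 0.265, 0.0863 and 0.213 RPM to 11.8, 9.05 and 8.02 RPM, or 5.81 ± 0.32 (adjusted p = 9.73e-07). Every treated library lay far above every untreated one, but both genes were chosen partly for lack of overlap. Neither reached 1 RPM in any untreated hairpin library, so both could be tested only through treated cells.

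Tissue-specific genes of unrelated lineages were also among the 12 largest protein coding rises. These were ranked only among genes that passed without overlap and reached 1 RPM in each treated control hairpin library. Msln, a surface protein of mesothelium, went from 0.23, 0.324 and 0.234 RPM to 1.66, 2.29 and 1.87 RPM (2.89 ± 0.28, adjusted p = 6.15e-05). Apob, the liver apolipoprotein of very-low-density lipoprotein, went from 0.884, 0.798 and 0.786 RPM to 6.67, 6.11 and 4.95 RPM (2.84 ± 0.13, adjusted p = 2.15e-07). At both genes the treated libraries were all several times above the untreated ones, but lack of overlap was part of their selection. Neither reached 1 RPM in an untreated control hairpin library, so both entered only through treated or Setdb1 hairpin cells. Asb5, an ankyrin-repeat protein of muscle, rose by 2.51 ± 0.19, Myh7b, a slow myosin heavy chain, by 2.10 ± 0.21 and the uncharacterised 3830417A13Rik by 2.78 ± 0.19. Gm2174 and Actbl2, a beta-actin-like gene, rose by 2.38 ± 0.14 and 1.90 ± 0.26. But their levels in the treated control hairpin cells lay above those of all 9 other hairpin libraries, treated Setdb1 hairpin cells included. Actbl2 was tested only by being high in treated control hairpin cells.

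**Figure D2:**
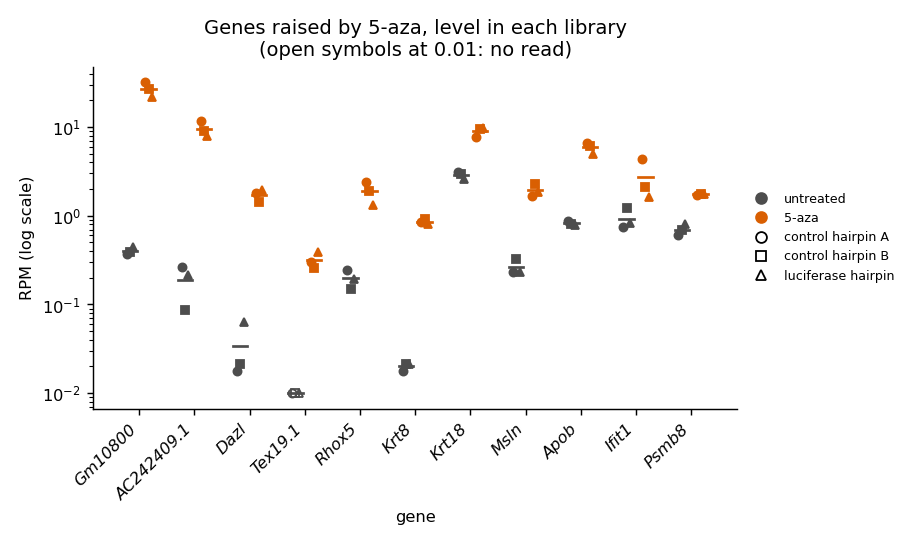
Level in RPM on a log axis of 11 genes that rose with 5-aza, one symbol per library (grey untreated, orange 5-aza; circle control hairpin A, square B, triangle luciferase), with a bar at each group mean. At every gene shown the 3 treated libraries lie above the 3 untreated, from Tex19.1 with no untreated read to Krt18, which was at about 3 RPM before treatment. Some of these genes were chosen partly because their groups did not overlap.

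Krt8 and Krt18, the paired keratins of simple epithelia, rose in these fibroblasts. Krt8 was at 0.0177, 0.0216 and 0.0213 RPM untreated, or 1 read in each library, and at 0.861, 0.912 and 0.808 RPM with 5-aza, at least 14.2-fold higher (adjusted p = 4.14e-07). It stayed under 1 RPM in all 6 libraries and was tested only through treated Setdb1 hairpin cells, where it was at 1.96 to 2.88 RPM. Krt18 went from 3.11, 2.93 and 2.57 RPM to 7.64, 9.55 and 9.70 RPM (1.64 ± 0.10, adjusted p = 1.67e-06). Neither gene's groups overlapped. Spint2, an epithelial protease inhibitor, rose by 0.93 ± 0.15 and Krt7 by 0.46 ± 0.14, a call lost after median centring and when any 1 of the 6 libraries was left out. Jup, plakoglobin of cell junctions, fell by 0.17 on the log2 scale. Of 29 listed epithelial genes 11 were tested, with 4 higher and 1 lower, beside 13.47% and 5.34% of all genes. Of the 11, 2 reached 1 RPM in no untreated control hairpin library. The 18 others on the list stayed at or under 0.453 RPM, so most epithelial genes were not detected at a level that could be tested. The Krt8 window shown above held 3 CpG, below the median of all windows.

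Members of the prolactin family, hormones made mainly by the placenta, moved in both directions. Prl3a1 went from 1.61, 1.66 and 2.89 RPM to 0.301, 0.316 and 0.808 RPM (-2.22 ± 0.43, adjusted p = 0.00509). This was the largest fall among the protein coding genes named here. Prl2c3, a proliferin, went from 1.17, 0.906 and 2.36 RPM to 2.93, 5.19 and 11.0 RPM (2.02 ± 0.59, adjusted p = 0.0336), and Prl2c2 rose by 2.75 ± 0.65 from under 0.11 RPM. The luciferase cells held the most of each, with or without drug. Prl2c2 and Prl2c3 are close copies whose reads may be shared, so their split is uncertain. The call for Prl2c3 was lost without the luciferase pair.

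Members of the interferon-stimulated and antigen-presentation lists rose, beside 13.47% of all genes. All 41 tested genes of the interferon list had a log2 fold change above 0, 13 of them passed higher and none lower, and the median was 0.36 against 0.04 over all genes. Of the 41, 7 reached 1 RPM in no untreated control hairpin library and entered only through treated or Setdb1 hairpin cells, and with a filter on the mean of the control hairpin libraries 11 rose. Ifit1, which binds foreign 5′ RNA ends and whose promoter is shown above, was at 0.742, 1.21 and 0.829 RPM untreated and 4.41, 2.08 and 1.64 RPM with 5-aza (1.45 ± 0.36, adjusted p = 0.0164). Its groups did not overlap, the treated value was highest in culture A, and the call was lost without untreated replicate A. Culture A led at the list as a whole, whose median deviation from the untreated mean was 0.62 in treated A, 0.29 in treated B and 0.22 in treated luciferase cells, against -0.04 to 0.07 untreated.

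Guanylate-binding and p47 GTPases, which act on intracellular pathogens, were also highest in treated culture A. Igtp rose by 1.01 ± 0.22, Gbp3 by 0.99 ± 0.27, Irgm2 by 0.87 ± 0.23 and Ifi203, an interferon-inducible DNA sensor family member, by 1.10 ± 0.27. Gbp3 and Ifi203 belong to families of similar copies. Irf7, a transcription factor of the interferon response, and the ubiquitin-like Isg15 did not pass, with log2 fold changes of 0.70 ± 0.23 (adjusted p = 0.0505) and 0.79 ± 0.39 (adjusted p = 0.177). Ifih1, a sensor of long double-stranded RNA, rose by 0.35 ± 0.10 (adjusted p = 0.0264). The 13 calls became 10 after median centring, 4 after quantile normalization, 6 without the luciferase pair or without treated replicate A, 5 without untreated replicate A or B and 8 without treated replicate B.

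MHC class I molecules present peptides from inside the cell. Of 19 genes of this pathway tested, 3 of which reached 1 RPM in no untreated control hairpin library, 9 rose and none fell, with a median of 0.39, and 8 rose after median centring, after GC correction and after length correction. Psmb8, an immunoproteasome subunit, went from 0.601, 0.69 and 0.808 RPM to 1.70, 1.77 and 1.78 RPM (1.33 ± 0.17, adjusted p = 0.000357). Tap2 and Tap1, the 2 chains of the peptide transporter, rose by 0.56 ± 0.08 and 0.51 ± 0.13. The class I heavy chain H2-K1 rose from 12.7, 12.9 and 11.9 RPM to 19.4, 17.8 and 17.2 RPM (0.54 ± 0.07, adjusted p = 0.000291), and H2-D1 by 0.38 ± 0.07. The light chain B2m, already at 415 RPM, was at 399 RPM with 5-aza (-0.06 ± 0.07, adjusted p = 0.632). H2-Q4, at 0.76 ± 0.16, has near-identical copies and is uncertain.

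**Figure D3:**
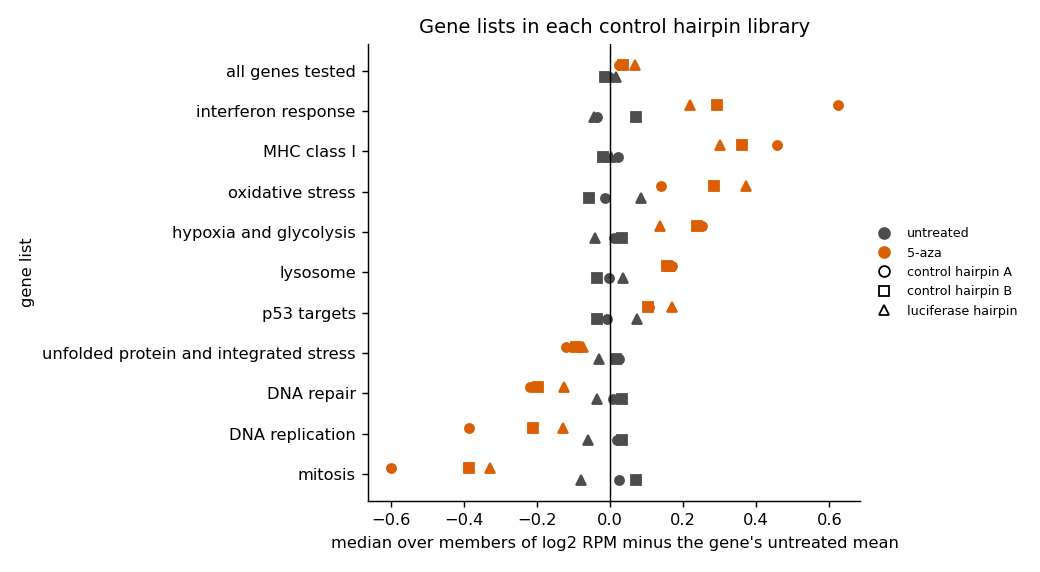
Median over the members of 10 gene lists, and over all genes tested, of the log2 RPM minus the gene's untreated mean, in each of the 6 control hairpin libraries (grey untreated, orange 5-aza; circle A, square B, triangle luciferase). Treated libraries lie left of 0 for mitosis, replication and repair and right of 0 for interferon and MHC class I genes, with treated A farthest out at mitosis (-0.6) and interferon (0.62).

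Most mitosis genes fell, beside 5.34% of all genes. Of 40 mitosis genes, 33 fell and none rose, with a median log2 fold change of -0.43 against 0.04 over all genes, and the remaining 7 also had values below 0. Mki67, the proliferation antigen, went from 194, 205 and 185 RPM to 124, 124 and 126 RPM (-0.64 ± 0.08, adjusted p = 0.000466). Plk1, a mitotic kinase, went from 28.2, 27.6 and 24.7 RPM to 16.4, 19.3 and 18.6 RPM (-0.57 ± 0.09, adjusted p = 0.00102). At both genes every treated value lay below every untreated one. Mybl2, a regulator of mitotic genes, Ttk, a spindle checkpoint kinase, and Kif4, a chromosome motor, fell with log2 fold changes of -0.59, -0.55 and -0.52. The number lower was 39 after median centring, 36 after GC correction, 37 after length correction and 32 without the luciferase pair, and ranged from 18 to 33 as single libraries were left out, the lowest without untreated replicate B.

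Some replication and repair genes fell, beside 5.34% of all genes. Of 39 replication genes, 9 fell and none rose (median -0.26). After median centring 17 fell, after GC correction 16 and after length correction 17. Pola1, the catalytic subunit of DNA polymerase alpha, went from 17.6, 18.7 and 16.6 RPM to 12.3, 13.4 and 13.3 RPM (-0.44 ± 0.08, adjusted p = 0.00499). E2f7, a repressor of E2F targets, and the replication-origin genes Cdc6, Orc1 and Mcm10 fell with log2 fold changes of -0.55, -0.51, -0.48 and -0.49. Mcm2 and Pcna did not pass, at -0.20 ± 0.09 (adjusted p = 0.151) and -0.13 ± 0.09 (adjusted p = 0.34). Of 32 repair genes, 10 fell and none rose (median -0.18), and 14 fell after GC correction and after length correction. Blm, the Bloom helicase, went from 13.9, 14.8 and 12.1 RPM to 9.26, 9.29 and 9.39 RPM (-0.54 ± 0.09, adjusted p = 0.00252), and Exo1, Fancb and Ung fell with values of -0.56, -0.46 and -0.57. Without untreated replicate A, 2 replication calls were left, and without untreated replicate B, 3 repair calls.

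Of 8 inhibitors of cyclin-dependent kinases 2 rose and 2 fell, beside 13.47% and 5.34% of all genes. Cdkn1a, the p53-induced inhibitor p21, went from 736, 690 and 777 RPM to 840, 861 and 893 RPM (0.24 ± 0.07, adjusted p = 0.0304). Cdkn2a, which encodes p16 and p19Arf, went from 39.0, 36.2 and 37.9 RPM to 43.5, 44.0 and 45.8 RPM (0.24 ± 0.07, adjusted p = 0.0272). Neither gene's groups overlapped, but neither call held after median centring (adjusted p = 0.0678 and 0.0609). Cdkn2c and Cdkn1b, p27, fell with log2 fold changes of -0.41 and -0.34. Of 37 p53 targets 7 rose and none fell, with 34 values above 0 and a median of 0.14, beside 13.47% of all genes higher. After median centring 4 rose, beside 9.78% of all genes, and 3 rose without the luciferase pair and 1 without untreated replicate B. GC correction and length correction each left 4 p53 targets higher. Gdf15, a stress-induced secreted factor, had the largest rise at 0.89 ± 0.21, Ak1, adenylate kinase, rose by 0.41 ± 0.05 and Ccng1, cyclin G1, by 0.23 ± 0.06. Mdm2 did not pass, at 0.19 ± 0.10 (adjusted p = 0.179).

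Some Notch signalling genes were among the largest falls. Notch receptors on one cell bind ligands such as Jag1 on a neighbour, and the released receptor domain joins Rbpj and a Maml coactivator to switch on Hes, Hey and Nrarp genes. Jag1, the ligand, went from 188, 203 and 192 RPM to 122, 113 and 104 RPM (-0.78 ± 0.09, adjusted p = 0.000266). The receptors Notch1 and Notch2 did not pass, at -0.07 ± 0.12 (adjusted p = 0.689) and 0.12 ± 0.07 (adjusted p = 0.264), while Notch4 rose by 0.92 ± 0.16 from near 0.5 RPM. Of the nuclear partners Rbpj rose by 0.28 ± 0.06 and Maml3 by 0.45 ± 0.10, and Maml2 fell by 0.40 on the log2 scale.

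The Notch target genes Nrarp, Hey2 and Hey1 fell. Nrarp went from 2.14, 2.31 and 1.38 RPM to 0.538, 0.763 and 0.435 RPM (-1.75 ± 0.30, adjusted p = 0.00221). Hey2 went from 10.7, 10.1 and 7.74 RPM to 4.95, 4.24 and 3.09 RPM (-1.23 ± 0.18, adjusted p = 0.000847). Hey1 went from 3.48, 3.62 and 3.19 RPM to 1.92, 1.81 and 1.78 RPM (-0.90 ± 0.12, adjusted p = 0.000571). No treated library reached an untreated one at these 3 genes. Treated and untreated libraries did not overlap at 37.6% of all genes tested, and Nrarp and Hey2 were chosen partly for lack of overlap. Hes1 did not pass, at -0.17 ± 0.08 (adjusted p = 0.149). Of 22 Notch genes tested 3 rose and 5 fell, beside 13.47% and 5.34% of all genes, and single libraries left out gave 5 to 6 falls. The 250 bases before the Hey2 start, at chr10:30842784-30843033 on the minus strand of GRCm38.p6 in RefSeq, hold the Rbpj core TGGGAA, searched on both strands and shown in capitals as its reverse complement. Over all windows 21.6% hold these letters.
Hey2: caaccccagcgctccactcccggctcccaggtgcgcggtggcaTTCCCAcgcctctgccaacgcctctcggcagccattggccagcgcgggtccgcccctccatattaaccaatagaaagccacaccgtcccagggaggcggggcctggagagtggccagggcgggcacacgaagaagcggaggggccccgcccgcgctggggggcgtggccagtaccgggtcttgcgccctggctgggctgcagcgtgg

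The genes of the secreted signals Bmp4, Fgf9 and Ntf3 fell. Bmp4, a bone morphogenetic protein, went from 21.5, 21.4 and 21.3 RPM to 11.8, 10.7 and 9.27 RPM (-1.02 ± 0.21, adjusted p = 0.00757), a call lost without the luciferase pair. Fgf9, a growth factor for mesenchyme, went from 1.20, 1.62 and 1.53 RPM to 0.667, 0.652 and 0.601 RPM (-1.17 ± 0.19, adjusted p = 0.00162). Ntf3, neurotrophin 3, went from 2.30, 2.48 and 1.98 RPM to 0.797, 1.08 and 1.06 RPM (-1.21 ± 0.15, adjusted p = 0.000296). All 3 genes were without overlap, for which Fgf9 and Ntf3 were in part chosen. Cxcl12, the ligand of CXCR4, Ccl17 and Tnfsf18 fell with log2 fold changes of -0.82, -1.11 and -1.14, while Cxcl5 and Ccl9 rose by 0.68 ± 0.16 and 0.77 ± 0.21. Cytokines as a list had 2 of 21 higher and 2 lower, beside 13.47% and 5.34% of all genes. In the endothelial marker list Flt1, a VEGF receptor, went from 96.0, 104 and 77.4 RPM to 54.6, 48.6 and 34.6 RPM (-1.02 ± 0.16, adjusted p = 0.00136), and the log2 fold change of Emcn was -1.09. Pmp2, a myelin protein, and Ptprq, a receptor phosphatase, fell with log2 fold changes of -1.54 and -1.09, and the uncharacterised 4833403I15Rik with -1.20.

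**Figure D4:**
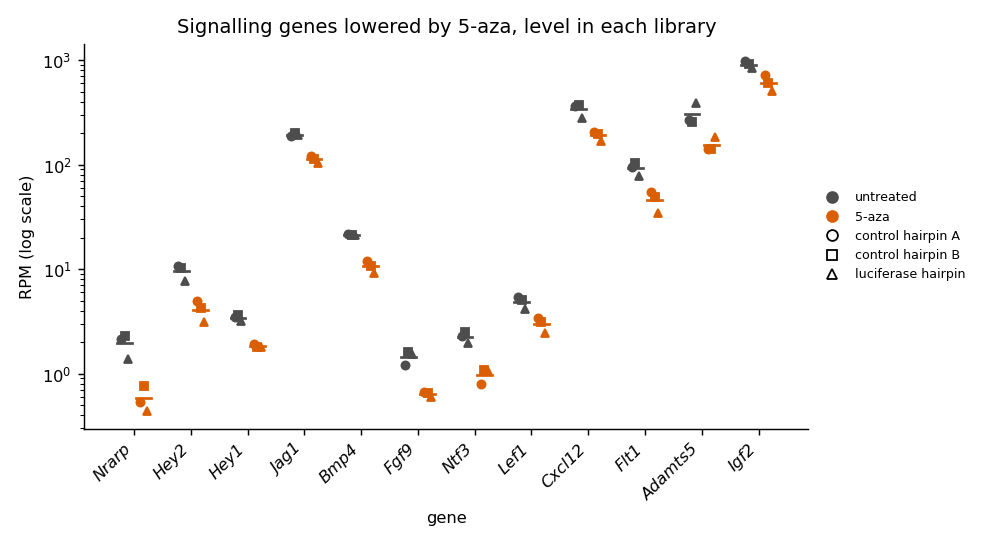
Level in RPM on a log axis of 12 genes that fell with 5-aza, one symbol per library (grey untreated, orange 5-aza; circle control hairpin A, square B, triangle luciferase), with a bar at each group mean. The treated libraries lie below the untreated ones at every gene shown, from Nrarp near 1 RPM to Igf2 at 507 to 974 RPM. Some of these genes were chosen partly because their groups did not overlap.

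The counts of the signalling lists here are set beside 13.47% of all genes higher and 5.34% lower. The TGF-β and BMP list had 5 of 36 higher and 4 lower with a median of -0.06. Its coreceptors rose, Tgfbr3 by 0.79 ± 0.14 and Eng by 0.45 ± 0.06, as did Inhbb, an activin subunit, by 0.73 ± 0.21 and the BMP antagonist Grem1 by 0.41 ± 0.10, while the receptor Bmpr2 fell by 0.35 on the log2 scale. Of 35 Wnt genes 2 rose and 5 fell. The transcription factor Lef1 fell by 0.70 and Tcf7 rose by 0.63 ± 0.12. The agonist Rspo3 and the receptors Ror1, Fzd4 and Fzd8 fell with values of -0.60, -0.60, -0.43 and -0.22, and without the luciferase pair 1 Wnt fall was left. Among axon guidance genes 1 of 37 rose and 5 fell, with Epha7 at -0.71 and Slit2 at -0.42. YAP-responsive genes had 4 of 17 lower and none higher, with Ctgf going from 2702, 2672 and 2626 RPM to 1902, 2211 and 2141 RPM (-0.36 ± 0.06, adjusted p = 0.00282) and Cyr61 falling by 0.20. After GC correction 8 of this list were lower, and after length correction 6 were lower and 1 higher. Over all genes 1274 were lower after GC correction and 1328 after length correction, in place of 702.

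Matrix genes changed by member, and their counts are set beside 13.47% of all genes higher and 5.34% lower. Of 41 collagen and matrix-assembly genes 1 rose and 5 fell, with a median of -0.04. Col8a2 and Col8a1, short-chain collagens of basement membranes, fell with log2 fold changes of -0.91 and -0.59, and Col12a1 and the crosslinking enzyme Lox with -0.65 and -0.47. The main fibrillar collagen Col1a1 had a log2 fold change of -0.17 ± 0.23 (adjusted p = 0.639). The cultures differed here: the list's median deviation was 0.26 in treated A, -0.02 in treated B and -0.26 in treated luciferase cells. Among matrix proteases and their inhibitors 6 of 23 rose and 4 fell. The aggrecanase Adamts5 went from 268, 257 and 388 RPM to 140, 142 and 183 RPM (-0.96 ± 0.15, adjusted p = 0.00159), and Adamts1 and Adamts12 fell with values of -0.86 and -0.72. Serpine2, an inhibitor of thrombin and urokinase, went from 91.3, 88.3 and 95.8 RPM to 168, 152 and 150 RPM (0.77 ± 0.11, adjusted p = 0.00082), and Mmp10 rose by 1.24 ± 0.26 from about 0.5 RPM.

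Other lineage programmes moved little, beside 13.47% of all genes higher and 5.34% lower. Of 23 contractile genes 2 rose and 3 fell. Des, desmin of muscle intermediate filaments, went from 13.1, 15.3 and 12.1 RPM to 28.5, 26.3 and 22.5 RPM (0.93 ± 0.11, adjusted p = 0.000184), while Acta2, smooth muscle actin, had a value of -0.06 ± 0.07 (adjusted p = 0.629). Of 34 skeletal muscle genes 13 were tested, with Des and Actc1 (0.76 ± 0.09) higher and Eya1 lower by 0.53. Actc1 was at 4.89 to 5.51 RPM in treated control hairpin cells and at 2.6 to 3.51 RPM in the 9 other hairpin libraries, the pattern of the pseudogenes, but at 5.1 RPM in the 5-aza library with no named hairpin. Of the adipocyte list 3 of 19 rose, against 1 after median centring, after GC correction or after length correction. Of the cartilage list 1 of 16 rose, Col9a3 at 0.54 ± 0.11. Cholesterol synthesis had 3 of 27 higher. The median of these 5 lists lay between -0.03 and 0.15.

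Metabolic and stress lists shifted by small amounts, and their counts are set beside 13.47% of all genes higher and 5.34% lower. After median centring 1285 of all genes were higher, and after GC correction 1220, in place of 1769. Oxidative stress genes had 16 of 30 higher and none lower, with all 30 values above 0 and a median of 0.28, with 10 higher after median centring, 13 after GC correction and 8 without untreated replicate B. Mt2, a metallothionein, went from 4.88, 3.99 and 5.72 RPM to 8.55, 8.66 and 10.9 RPM (0.95 ± 0.13, adjusted p = 0.000527), Mt1 rose by 0.49 ± 0.08 and the glutathione enzymes Gpx3 and Gstm1 by 0.56 ± 0.11 and 0.52 ± 0.12. Lysosome genes had 13 of 28 higher and none lower (median 0.16), 11 after median centring and 9 after GC correction, with the protease Ctsb at 319, 318 and 320 RPM untreated and 428, 404 and 401 RPM treated (0.37 ± 0.04, adjusted p = 0.000274). Hypoxia and glycolysis genes had 12 of 28 higher and none lower (median 0.22), against 7 after median centring and 4 after GC correction. Pkm rose by 0.27 ± 0.04, Eno1 by 0.31 ± 0.04 and Bnip3 by 0.60 ± 0.14.

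Respiratory chain genes had 17 of 75 higher and none lower (median 0.13), beside 13.47% and 5.34% of all genes. After length correction 6 were higher and 1 lower, and without the luciferase pair 5 were higher. Their median transcript length was 1046 bases against 3349 over all genes. Of 28 genes of the unfolded protein and integrated stress responses 3 fell and none rose, Herpud1 by 0.22 on the log2 scale, with a median of -0.11.

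Genes listed as imprinted had 2 of 35 higher and 6 lower with a median of 0.06. An imprinted gene is expressed from a single allele, set by DNA methylation. Alleles were not separated here, so whether each listed gene was imprinted in these cells was not tested. Over all genes 13.47% were higher and 5.34% lower. The imprinted gene Igf2, a paternally expressed growth factor, went from 974, 913 and 841 RPM to 721, 607 and 507 RPM (-0.58 ± 0.13, adjusted p = 0.00906), without overlap. Its overlapping antisense gene Igf2as fell by 0.81, but strand was not used in any stated way, so reads of the pair cannot be told apart. Mest, Nnat, Zdbf2 and Grb10 fell with log2 fold changes of -0.64, -0.57, -0.37 and -0.28 and Gatm rose by 0.80 ± 0.12. H19, the maternal neighbour of Igf2, had a value of -0.20 ± 0.17 (adjusted p = 0.441). Without untreated replicate B, 2 of the 6 falls were left.

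Clustered histone genes had 6 of 33 higher and 2 lower, beside 13.47% and 5.34% of all genes. Hist1h2bm rose by 1.41 ± 0.19 to between 1.29 and 1.71 RPM. This lay above the 0.453 to 0.88 RPM of the 9 other hairpin libraries and so in the pattern of the pseudogenes. Hist1h2bm was tested only by being high in treated control hairpin cells. Hist1h2ao went from 16.5, 16.7 and 12.9 RPM to 8.59, 8.54 and 9.25 RPM (-0.80 ± 0.12, adjusted p = 0.00102). Histone copies are nearly identical and most of their messages lack a poly(A) tail, so these values are uncertain in poly(A) RNA. Ribosomal protein genes had 16 of 83 higher and 3 lower, but 11 higher and 22 lower after length correction. That correction gave 1276 higher and 1328 lower over all genes, in place of 1769 and 702. The largest rises were of Rps13 (1.05 ± 0.09), Rps6 (1.0 ± 0.08), Rps10 (0.65 ± 0.08), Rpl35 (0.64 ± 0.07) and Rpsa (0.64 ± 0.07). Rps6 was at 5.74 to 8.01 RPM in the 9 other hairpin libraries and at 11.2, 12.4 and 12.4 RPM in treated control hairpin cells, the same pattern as the pseudogenes. The 3 largest rises outside the protein coding genes were of that kind too: Rps15a-ps1 at 2.42 ± 0.21, Gm5068 at 2.31 ± 0.17 and Rpl27a-ps2 at 2.28 ± 0.24. The 3 largest falls there were of Igf2as, 4732440D04Rik (-0.79) and Gm14236 (-0.78).

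Responses were set beside those of Setdb1 hairpin cells, whose untreated and treated libraries are separate from those above. Of the 74 protein coding genes raised at least 2-fold, 53 had a log2 fold change of at least 1 in Setdb1 hairpin cells too, or 71.6%, where 1.02% of all genes did. The filter counts the Setdb1 hairpin libraries too, so some genes low in control hairpin cells could enter only by being high there. The share is therefore partly set by the filter. With a filter on the mean of the control hairpin libraries, 71 genes of any kind rose at least 2-fold in place of 111. The share was not computed with that filter. Of the 20 protein coding genes reported here that fell at least 2-fold, 13 fell at least 2-fold there, or 65%, where 0.457% of all genes did. Of the 32 pseudogenes, 0 rose at least 2-fold there, and their median was 0.04. The interaction test, which asks whether the responses differ, called 51 of the 13134 genes (0.388%), and 34 of these were pseudogenes. All 51 were lower in Setdb1 hairpin cells. Some could be tested only through high levels in treated control hairpin cells, so this direction is partly set by the filter. Without pseudogenes in the fit, 14 genes were called.

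Among named genes the responses differed at 10. Krt8 was 0.239 to 0.463 RPM in untreated and 1.96 to 2.88 RPM in treated Setdb1 hairpin cells, so it started higher and ended higher there than in control hairpin cells, with a smaller fold (interaction -2.53, adjusted p = 0.0139). Its partner Krt18 was at 9.07 to 10.1 and 18.6 to 20.5 RPM there, and its interaction did not pass (adjusted p = 0.162). Itgam, an integrin of myeloid cells, went from 0.513, 0.302 and 0.383 RPM to 1.31, 1.15 and 1.24 RPM in control hairpin cells and stayed at 0.302 to 0.578 RPM in the 9 other hairpin libraries (interaction -1.76, adjusted p = 0.0392). It was at 6.28 RPM in the 5-aza library with no named hairpin, unlike the pseudogenes. Gm2174, Gm5068, Rps15a-ps1, Rpl27a-ps2, Rps6, Rps13, Rpl35 and Rpsa each rose in control hairpin cells and responded less in Setdb1 hairpin cells by this test. Of the hairpin libraries, only those of treated control hairpin cells reached 1 RPM at Itgam, Rps15a-ps1 and Rpl27a-ps2. These genes could be tested only by being high there, so their interactions are partly set by the filter. Medians of gene lists were close for some lists and apart for others, and the difference of a list was not tested. For mitosis genes the median log2 fold change was -0.19 in Setdb1 hairpin cells against -0.43 in control hairpin cells, for replication -0.13 against -0.26, for repair -0.09 against -0.18 and for collagens and matrix assembly -0.29 against -0.04. For interferon genes it was 0.37 against 0.36, for MHC class I genes 0.37 against 0.39 and for p53 targets 0.13 against 0.14.

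**Figure D5:**
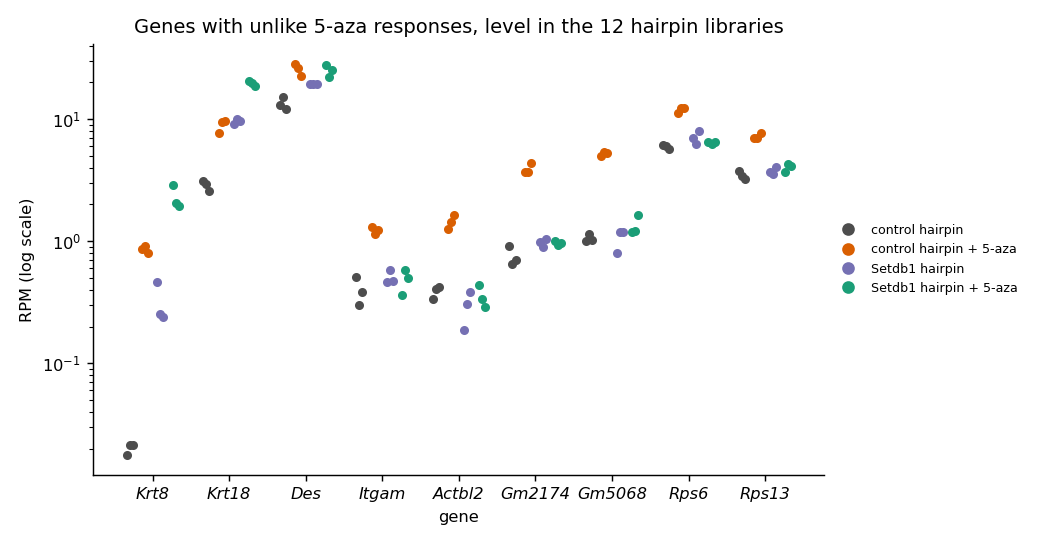
Level in RPM on a log axis of 9 genes in all 12 hairpin libraries (grey control hairpin, orange control hairpin with 5-aza, purple Setdb1 hairpin, green Setdb1 hairpin with 5-aza; one point per library). Krt8 and Krt18 rise with 5-aza under both hairpins, whereas Itgam, Actbl2, Gm2174, Gm5068, Rps6 and Rps13 are high in the 3 treated control hairpin libraries and lower in the 9 others.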

How the data were processed

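Poly(A) RNA was made into Illumina TruSeq libraries and sequenced as 100-bp single-end reads on an Illumina HiSeq instrument. The labels' processing notes name CASAVA 1.4 and the mm10 build. Values were deposited as log2 RPM per gene interval; how the authors aligned and counted for this table is not given in the sources used here. Divided by the value of 1 read, 100% of values below 1000 reads came out within 0.1 of a whole number, with 0.9 of a read in place of 0. A fold change is on this log2 scale.

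Genes with at least 1 RPM in 3 of the 12 hairpin libraries were tested with limma 3.58.1 in R 4.3.3 (1 fit over 4 groups, moderated with a trend, 8 residual degrees of freedom, two-sided, Benjamini-Hochberg over all 13134 genes). No count test was run. The script was tested on simulated data. The 1 library without a named hairpin entered no comparison.

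The members and gene lists were chosen with earlier results of these data known. Genes named were Dnmt1, Dnmt3a, Dnmt3b and Uhrf1; the 12 largest rises and 12 largest falls among protein coding genes, and 3 each among others, that passed without overlap between groups and reached 1 RPM in each library of the higher group; and up to 5 members per list and direction, with members that did not pass where a pathway needed them. Of the genes so selected, 1 is left unreported. Ccng1, H2-D1, Ifih1 and Stag3 were named after their values were seen. Alternatives were other scalings, filters, offsets and fits, leaving out libraries, and, added after seeing the data, removal of GC and length trends and of pseudogenes. Floors of 3 reads cover counting error only.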

Additional observations from a re-analysis of the deposited data

Results flagged for a closer look

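The 5-aza response differed between control and Setdb1 hairpin cells at 10 named genes by limma's interaction test, each given as the response in Setdb1 hairpin cells minus that in control hairpin cells on the log2 scale. For protein coding genes outside the ribosome the difference was -2.53 for Krt8 (adjusted p = 0.0139), -2.40 for Gm2174 (adjusted p = 0.000117) and -1.76 for Itgam (adjusted p = 0.0392). For pseudogenes and pseudogene-like models it was -2.30 for Rpl27a-ps2, -1.94 for Gm5068 and -1.72 for Rps15a-ps1. For ribosomal proteins it was -1.13 for Rps6, -0.95 for Rps13, -0.78 for Rpl35 and -0.73 for Rpsa. The Krt8 value rests on 1 read in each untreated control hairpin library, so its size is uncertain. All but Krt8 were higher in the 3 treated control hairpin libraries than in the 9 other hairpin libraries, and the cause was not tested. Itgam, Rps15a-ps1 and Rpl27a-ps2 passed the filter only through those 3 libraries, so for them this pattern is partly set by the filter.

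The library whose label gives 5-aza but no hairpin entered no comparison. It held 96.6 RPM of Gm10800, 30.2 RPM of AC242409.1 and 2.94 RPM of Dazl, each above the 3 untreated control hairpin libraries. Groups of 3 are too small for a test of single outlying libraries.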

How the results depend on the processing

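The replicate block by culture, which pairs libraries of the same hairpin and letter, gave 3902 calls in place of 2471 (2704 higher) with 1198 lower, and 169 interaction calls in place of 51; with median centring as well it gave 3843 calls, 1987 lower and 174 interactions. With the block alone, 23 interferon genes, 17 p53 targets and 20 hypoxia and glycolysis genes were higher, in place of 13, 7 and 12. Of replication genes 21 were lower and 1 higher, in place of 9 and 0. These stand beside the 2704 higher and 1198 lower of all genes given above. The deviations of paired libraries correlated at 0.149 in A and 0.0999 in B. With treated libraries of other cultures they correlated at -0.258 to 0.206 and at -0.535 to 0.465. The luciferase pair correlated at 0.586, above the -0.461 to -0.21 with other cultures. The values above come from the fit by group, with the block as an alternative, so they leave the labels' pairing out of account. Scaling moved the falls, from 702 to 1335 after median centring, 1103 after quantile normalization, 1274 after GC correction and 1328 after length correction. At least 2-fold changes (111 higher, 21 lower) were 65 and 39 with quantile normalization, 333 and 49 without a filter, 27 and 6 with at least 5 RPM, and 28 and 6 on log2(RPM + 1), and 71 rises passed with a mean of at least 1 RPM over the control hairpin libraries. Without both luciferase libraries 1581 calls (1132 higher, 449 lower) and 23 interactions were left. Interactions were 19 with at least 5 RPM and 14 without pseudogenes. Leaving out 1 control hairpin library gave 1260 to 2451 calls, 941 to 1809 higher, 319 to 642 lower, 98 to 136 higher at least 2-fold, 18 to 29 lower at least 2-fold and 30 to 42 interactions. Of 193 named genes 107 kept their call in all alternatives, and 1 value reversed (Thbs1, 0.0 with quantile normalization). Another 1 was stronger (Dnmt3a, -0.181 with the replicate block and median centring). The promoter comparison is void, since 49 of 74 raised protein coding genes had a window. 3 libraries a group, low levels near 1 RPM and an unstated counting of shared reads limit what can be said of single genes.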
